A study of Mus musculus with 12 samples.

Results

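Transcript levels of 9 genes of the IL-10 and TGF-beta axis were followed in mouse bone marrow-derived macrophages. The genes were Il10, Il10ra, Il10rb, Tgfb1, Tgfbr1, Tgfbr2, Tgfbi, Smad3 and Smad7, picked by name, and each matched 1 of the 23847 rows of the expression tables. Of the 9, 8 reached 1 FPKM (fragments per kilobase of transcript and library size) in at least 1 sample and were tested among 11191 such rows. Smad7 stayed below 1 FPKM in every sample and is described without that test.

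The study sequenced polyadenylated RNA to learn how IL-4, the signal for alternative macrophage polarization, alters the response to the bacterial product LPS. All 12 samples came from wild-type mice of C57BL/6 background aged 8 to 12 weeks. Their marrow was cultured for 6 days with L929 cell supernatant, a source of M-CSF. The 4 groups of 3 samples were untreated control cells, cells given IL-4 at 20 ng/ml for 24 h, cells given LPS at 100 ng/ml for 3 h, and cells given the same IL-4 before the same LPS (IL-4+LPS). The doses are those of the labels; the general methods of the study state the LPS dose in nM. These are cultured cells grown from marrow, so they stand for no particular tissue macrophage.

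IL-10 is a cytokine that restrains inflammatory gene expression in macrophages, acting through a receptor made of a specific chain, IL-10Rα (Il10ra), and a shared chain, IL-10Rβ (Il10rb), that activates JAK1, TYK2 and STAT3. TGF-beta is secreted in a latent form that must be released before it can bind its type II receptor (Tgfbr2), which then recruits and phosphorylates the type I receptor (Tgfbr1). The type I receptor activates SMAD2 and SMAD3, while SMAD7 is an inhibitor of the same receptor.

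The libraries carried macrophage markers, with 8 of the 8 listed markers present in the tables at a mean of at least 1 FPKM in every group. Their summed level was 19350 to 20703 FPKM in control and 15473 to 16703 FPKM in LPS samples, but 7672 to 7885 FPKM with IL-4 and 6568 to 6956 FPKM with IL-4+LPS. The part of this shift in the results after IL-4 was not tested, and in such bulk samples fewer cells expressing a gene and less RNA per cell cannot be told apart. The marker list includes Lyz2, which the paper reports as repressed by IL-4. The share of Lyz2 in the summed level was not tested. Summed markers of T cells, B cells, dendritic cells, fibroblasts, mast cells and erythroid cells stayed under 5 FPKM in every sample. The list for neutrophils and their precursors, with 5 of 5 genes in the tables at a mean of at least 1 FPKM, summed to 147 to 441 FPKM in control, 101 to 197 FPKM with IL-4, 224 to 520 FPKM with LPS and 183 to 413 FPKM with IL-4+LPS. The IL-4 samples thus lay below the LPS samples on this list, and its part in the results was not tested. Retnla, an IL-4-induced gene, was 11617 to 13029 FPKM with IL-4 against 5.91 to 19.5 FPKM in control, and Tnf was 1313 to 1416 FPKM with LPS against 11.8 to 19.0 FPKM, so both agents left their mark in the samples labelled with them. Relative depth, read from the steps between low FPKM values, was 0.991 to 1.03 in the 4 replicate 1 libraries and 1.27 to 3.30 in the others, with control replicate 1 set to 1. Replicate 1 stood apart in every group: its correlation across genes with the other replicates of its group averaged 0.959, against 0.977 between replicates 2 and 3, and calls that changed without it are given both ways.

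Differences were tested with limma on log2(FPKM + 1), and a gene was called higher or lower at a Benjamini-Hochberg adjusted p below 0.05 over all 11191 rows. On this scale the fold of a gene near 1 FPKM is understated. With LPS the median difference over all tested rows was -0.44 (log2) against control, and -0.14 after median scaling, so a member's change is read beside that shift. Median scaling changed the calls in that comparison from 1887 higher and 6462 lower rows to 2966 higher and 4453 lower, and the other contrasts of LPS-exposed with unexposed cells shifted alike: 1682 and 6474 became 2629 and 4057 for IL-4+LPS against IL-4, 2001 and 6311 became 3299 and 4457 for IL-4+LPS against control, and 2068 and 6183 became 3017 and 4373 for LPS against IL-4.

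LPS moved most members of the axis, a share near that of all tested rows. IL-4 alone lowered Il10ra and both TGF-beta receptors. Tgfbr2, Tgfbi and Smad3 had their lowest group means with the combination, though for Smad3 the difference from LPS alone did not pass the test. Against control, LPS raised 2 of 8 tested members (Il10 and Il10ra; 16.9% of all rows were higher) and lowered 4 (Il10rb, Tgfbr1, Tgfbr2 and Smad3; 57.7% of all rows were lower), a share of lower members that does not exceed the background. Smad3 reached 1 FPKM in control samples only, so in every comparison with control the filter favoured a lower call for it. The median member differed by -0.52 and the median row by -0.44 (log2). IL-4 alone raised 0 of 8 by limma (16.0% of all rows; also 0 at an unadjusted p below 0.05) and lowered 4, namely Il10ra, Tgfbr1, Tgfbr2 and Smad3 (21.0% of all rows). The median member was -0.69 against -0.05 (log2) for the median row.

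After IL-4, LPS raised 1 of 8 members, Il10ra (15.0% of all rows higher), and lowered 4, namely Il10rb, Tgfbr2, Tgfbi and Smad3 (57.9% lower). Between the LPS-exposed groups, IL-4 pretreatment raised 0 of 8 by limma (15.0% of all rows; also 0 at an unadjusted p below 0.05) and lowered 2, Tgfbr2 and Tgfbi (15.8%). IL-4+LPS against control gave 1 higher member, Il10ra (17.9% of all rows), and 5 lower, namely Il10rb, Tgfbr1, Tgfbr2, Tgfbi and Smad3 (56.4%). LPS against IL-4 gave 2 higher, Il10 and Il10ra (18.5%), and 2 lower, Il10rb and Smad3 (55.2%). In this comparison the Il10rb call was lost with median scaling (-0.07, adjusted p = 0.508). The Smad3 call was lost with quantile normalization (-0.25, adjusted p = 0.0791). The interaction, in which the LPS response of untreated cells is subtracted from that of IL-4-pretreated cells, was above 0 for 3 members, Il10ra, Tgfbr1 and Smad3 (4.58% of all rows), and below 0 for 0 by limma (4.63%), with 1 at an unadjusted p below 0.05, Tgfbi. These contrasts share groups, so their counts are not separate evidence.

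**Figure D1:**
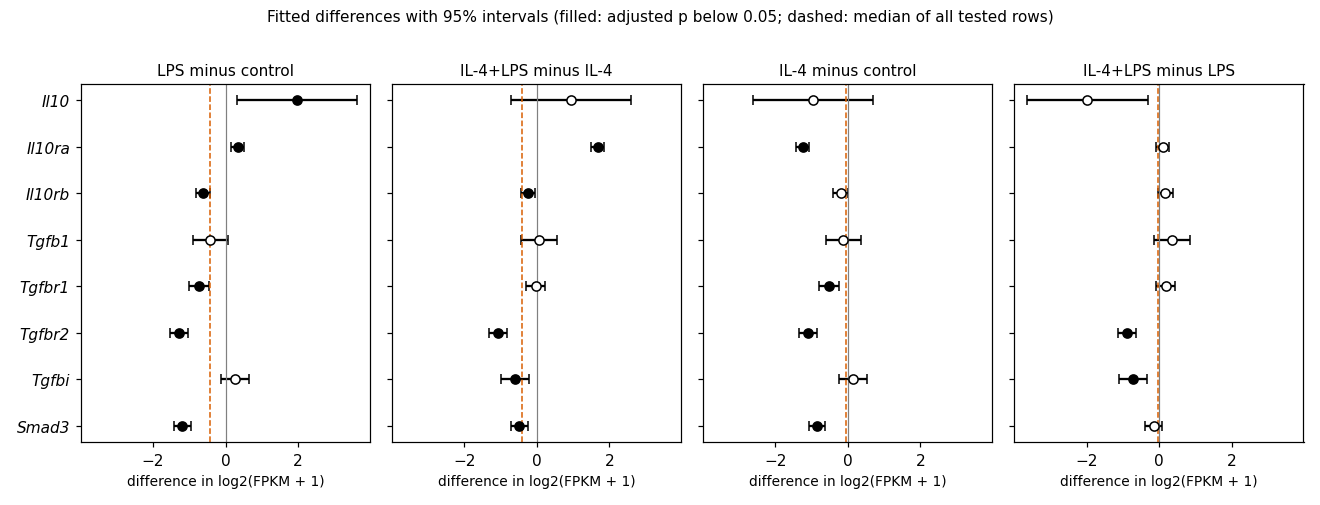
Fitted difference in log2(FPKM + 1) of the 8 tested members in 4 comparisons, with 95% intervals (n = 3 per group). Filled points have an adjusted p below 0.05 and dashed lines mark the median of all 11191 rows. Tgfbr2 lies left of both lines in all 4 panels, and the Il10 intervals are the widest.

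Il10 (chromosome 1, 131019845 to 131024970, plus strand, mm10, protein coding), the ligand of the IL-10 arm, rose with LPS, and in each replicate number its value with both agents was well under that with LPS alone. In control replicates 1, 2 and 3 it was 5.20, 7.90 and 7.50 FPKM, and with IL-4 it was 2.13, 3.35 and 3.64 FPKM. With LPS it was 8.11, 59.4 and 49.3 FPKM, and with IL-4+LPS 1.60, 14.5 and 10.3 FPKM. Replicate 1 held the lowest value in each of the 4 groups. Every IL-4 value was below every control value and every LPS value above, while the IL-4+LPS values overlapped all 3 other groups.

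The LPS difference from control was 1.96 ± 0.75 (log2, SE; adjusted p = 0.0343). It was 2.66 with replicates 2 and 3 only (adjusted p = 9.17e-06), but the call was lost when any 1 of control replicate 1, 2 or 3 or of LPS replicate 2 or 3 was left out, with values of 1.80, 2.06, 2.03, 1.46 and 1.59 in that order, and in the fit without a filter on low values (adjusted p = 0.101). IL-4+LPS against LPS gave -1.98 ± 0.75 (adjusted p = 0.0703), which did not pass the threshold. Its 95% interval ran from -3.63 to -0.32. With the replicate number added to the fit as a block, the difference passed (adjusted p = 0.00838). With replicates 2 and 3 only the same difference was -2.06 (adjusted p = 0.000118), and it also passed without LPS replicate 1 (-2.84, adjusted p = 0.00739) and without IL-4+LPS replicate 2 (-2.48, adjusted p = 0.0498). Within replicate numbers 1, 2 and 3 the IL-4+LPS level was 19.7%, 24.4% and 20.8% of the LPS level, a narrow range beside the spread of the absolute levels. IL-4 alone differed from control by -0.97 ± 0.75 (adjusted p = 0.348), and by -0.95 with replicates 2 and 3 only (adjusted p = 0.00313). After IL-4 the LPS difference was 0.95 ± 0.75 (adjusted p = 0.27), and 1.56 with replicates 2 and 3 only (adjusted p = 0.00012). IL-4+LPS against control was -0.02 ± 0.75 (adjusted p = 0.991), and 0.61 with replicates 2 and 3 only (adjusted p = 0.0104), so its direction too depended on replicate 1. The interaction was -1.01 ± 1.06 (adjusted p = 0.627) and -1.11 with replicates 2 and 3 only (adjusted p = 0.0153), so its call depended on replicate 1.

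**Figure D2:**
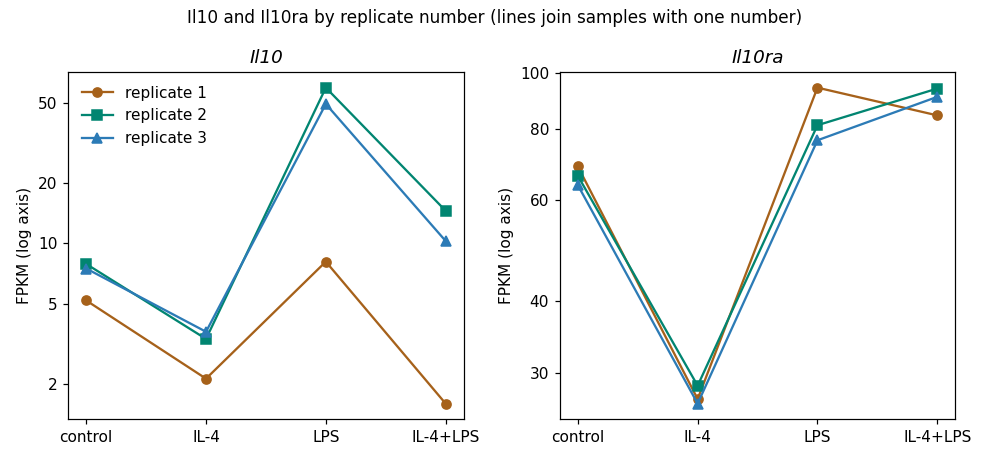
Il10 and Il10ra in FPKM (log axes) in the 4 groups, with lines joining samples that carry the same replicate number. The Il10 line of replicate 1 runs below those of replicates 2 and 3, with 8.11 FPKM against 59.4 and 49.3 FPKM in LPS, whereas the Il10ra lines lie close together and dip to 26.5 to 28.5 FPKM with IL-4.

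Il10ra (chromosome 9, 45253839 to 45269146, minus strand), the ligand-specific receptor chain, fell with IL-4 and did not stay low once LPS was added. It was 68.7, 66.2 and 63.8 FPKM in control and 27.0, 28.5 and 26.5 FPKM with IL-4. It was 94.3, 81.1 and 76.4 FPKM with LPS and 84.4, 94.0 and 90.9 FPKM with IL-4+LPS. The IL-4 samples lay below all others, the control samples came next, and the LPS and IL-4+LPS samples overlapped at the top. IL-4 lowered Il10ra by -1.25 ± 0.08 (log2; adjusted p = 1.73e-06), to 41.3% of the control mean. LPS raised it by 0.33 ± 0.08 in cells without IL-4 (adjusted p = 0.00342) and by 1.68 ± 0.08 after IL-4 (adjusted p = 4.47e-08). The interaction of 1.35 ± 0.11 (adjusted p = 0.000105) passed the threshold under all 22 alternatives run. IL-4+LPS and LPS did not differ beyond their spread (0.10, 95% interval -0.08 to 0.28, adjusted p = 0.395), although replicates 2 and 3 only gave 0.23 (adjusted p = 0.0128).

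Il10rb (chromosome 16, 91406235 to 91425834, plus strand), the chain shared with other cytokine receptors, was the more abundant chain per length in every sample. It measured 161, 195 and 190 FPKM in control, 148, 158 and 165 FPKM with IL-4, 108, 122 and 124 FPKM with LPS, and 124, 138 and 137 FPKM with IL-4+LPS. Control and IL-4 samples overlapped, and the LPS samples were the lowest, just under the lowest IL-4+LPS sample. LPS lowered it by -0.62 ± 0.09 (adjusted p = 8.43e-05), which is -0.18 relative to the median row. After IL-4 the LPS difference was -0.24 ± 0.09 (adjusted p = 0.0299). This call was lost without IL-4 replicate 2 or 3, without IL-4+LPS replicate 1 and without the filter on low values. The difference reversed to 0.12 under median scaling, so no direction is given for it. The call for IL-4+LPS against control was lost under the same scaling (-0.06, adjusted p = 0.572). IL-4 against control was -0.20 ± 0.09 (adjusted p = 0.096), IL-4+LPS against LPS 0.18 ± 0.09 (adjusted p = 0.163) and the interaction 0.38 ± 0.12 (adjusted p = 0.0872). With replicates 2 and 3 only these passed the threshold, at -0.25 (adjusted p = 0.00204), 0.17 (adjusted p = 0.0116) and 0.41 (adjusted p = 0.00275). The level of Il10rb is uncertain because 14.9% of its annotated exonic bases overlap Gm21970 on the same strand.

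Tgfb1 (chromosome 7, 25687002 to 25704996, plus strand), the TGF-beta ligand of the axis, was abundant in all groups. It passed the test in none of the 7 comparisons in the main fit of 12 samples, though some alternatives gave calls. It was 140, 200 and 162 FPKM in control, 136, 148 and 172 FPKM with IL-4, 95.5, 142 and 138 FPKM with LPS, and 114, 186 and 186 FPKM with IL-4+LPS. All groups overlapped, and the lowest value of each group was again replicate 1. LPS against control was -0.42 ± 0.22 (adjusted p = 0.105; 95% interval -0.91 to 0.07). IL-4+LPS against LPS was 0.35 ± 0.22 (adjusted p = 0.263). With replicates 2 and 3 only these were -0.36 (adjusted p = 0.0193) and 0.40 (adjusted p = 0.0227), so both differences passed the threshold without replicate 1. The interaction was 0.48 ± 0.31 (adjusted p = 0.404), and 0.58 without replicate 1 (adjusted p = 0.0384). Quantile normalization also gave a call for LPS against control (-0.57, adjusted p = 0.0204). With the replicate number as a block, calls came for LPS against control (adjusted p = 0.00814), IL-4+LPS against LPS (0.0365) and LPS against IL-4 (0.041).

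Tgfbr2 (chromosome 9, 116087695 to 116175363, minus strand), the ligand-binding type II receptor, fell with each agent and fell further with both. It was 38.8, 42.9 and 41.2 FPKM in control, 16.9, 19.7 and 19.0 FPKM with IL-4, 18.8, 15.5 and 14.5 FPKM with LPS, and 9.57, 7.49 and 7.75 FPKM with IL-4+LPS. The control samples lay above and the IL-4+LPS samples below all others, while the IL-4 and LPS samples overlapped between them. Against control the difference was -1.11 ± 0.11 with IL-4 (adjusted p = 3.84e-05), -1.29 ± 0.11 with LPS (adjusted p = 2.39e-06) and -2.19 ± 0.11 with IL-4+LPS (adjusted p = 4.87e-08). Relative to the median row these were -1.06, -0.85 and -1.75. IL-4+LPS was lower than LPS by -0.90 ± 0.11 (adjusted p = 0.000181) and lower than IL-4 by -1.08 ± 0.11 (adjusted p = 1.07e-05). IL-4 and LPS did not differ beyond their spread (-0.18, adjusted p = 0.166), but replicates 2 and 3 only placed LPS lower by -0.35 (adjusted p = 0.000815). The mean with both agents was 20.2% of control. The interaction was 0.21 ± 0.16 (adjusted p = 0.483; 95% interval -0.14 to 0.56), so on the log2 scale a difference between the LPS responses with and without IL-4 was not detectable.

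Tgfbr1 (chromosome 4, 47353305 to 47414924, plus strand), the signalling type I receptor, also fell with each agent, but IL-4 and LPS together took it no lower than either alone. It was 24.5, 20.1 and 22.4 FPKM in control, 18.0, 13.2 and 14.8 FPKM with IL-4, 13.4, 12.5 and 13.1 FPKM with LPS, and 16.2, 12.7 and 15.8 FPKM with IL-4+LPS. Control samples lay above all others, and the remaining 3 groups overlapped. The difference from control was -0.52 ± 0.12 with IL-4 (adjusted p = 0.0073), -0.74 ± 0.12 with LPS (adjusted p = 0.000265) and -0.56 ± 0.12 with IL-4+LPS (adjusted p = 0.00178), the last lost with median scaling (-0.19, adjusted p = 0.196). Among IL-4, LPS and IL-4+LPS no pair passed the test, with adjusted p = 0.139 for LPS against IL-4, 0.305 for IL-4+LPS against LPS and 0.821 for IL-4+LPS against IL-4. The interaction was 0.70 ± 0.17 (adjusted p = 0.0309), and it lost significance in 10 of the 22 alternatives. Those that left out 1 library gave 0.64 without control replicate 1, 0.70 without control replicate 3, 0.61 and 0.69 without IL-4 replicates 2 and 3, 0.68 and 0.71 without LPS replicates 2 and 3, and 0.64 and 0.66 without IL-4+LPS replicates 1 and 3.

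**Figure D3:**
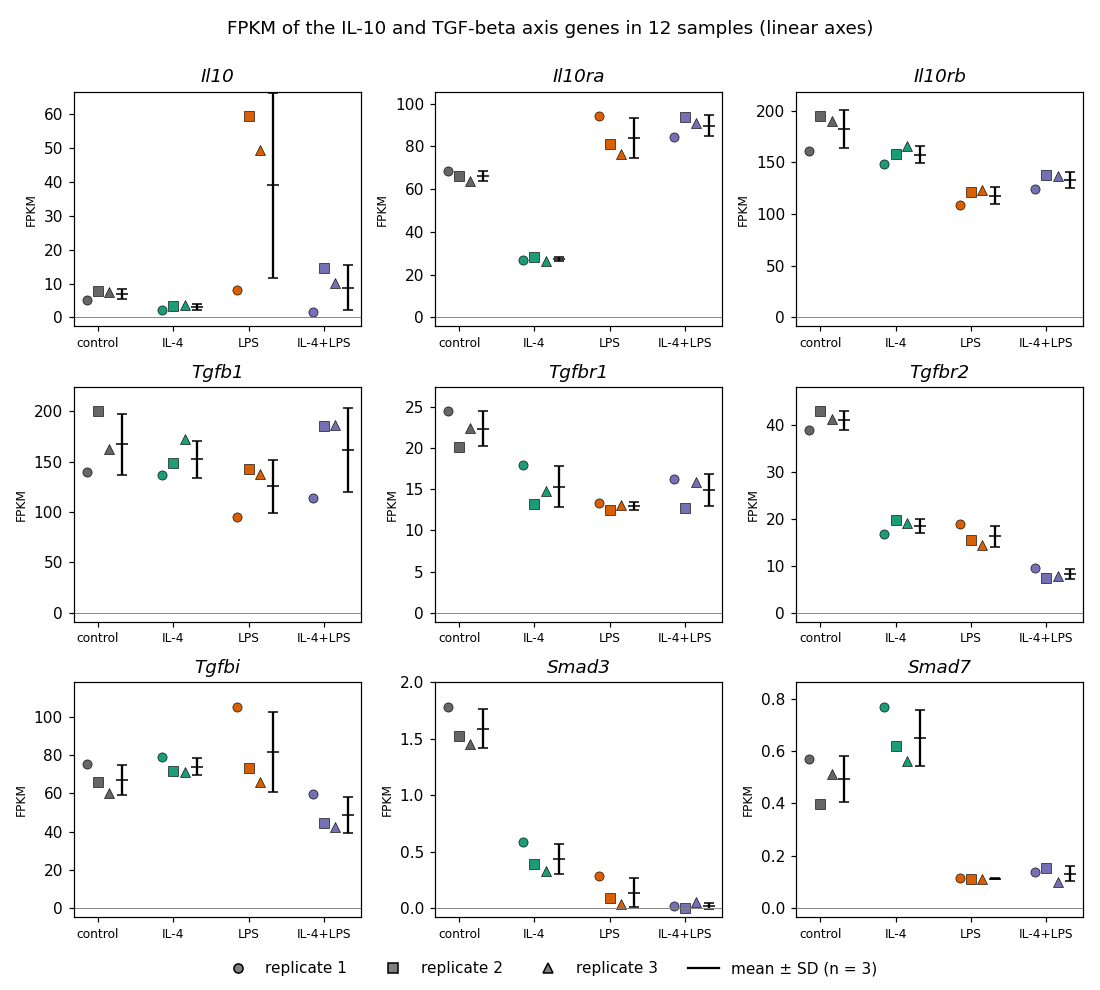
FPKM of the 9 members in 12 samples on linear axes, with circles, squares and triangles for replicates 1, 2 and 3 and bars for the mean ± SD (n = 3). Tgfbr2 steps from 38.8 to 42.9 FPKM in control down to 7.49 to 9.57 FPKM with IL-4+LPS, and Smad3 and Smad7 stay under 2 FPKM throughout.

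Smad3 (chromosome 9, 63646767 to 63757994, minus strand), the receptor-activated SMAD, was low in control and lower still in every treated group. It was 1.79, 1.53 and 1.46 FPKM in control and 0.58, 0.39 and 0.33 FPKM with IL-4. It was 0.28, 0.091 and 0.036 FPKM with LPS, and 0.017, 0 and 0.052 FPKM with IL-4+LPS, where replicate 2 was listed at 0. Control, IL-4 and LPS samples did not overlap, and LPS and IL-4+LPS samples did. Only control samples reached 1 FPKM, so Smad3 entered the test through the group where it was highest. On the log2(FPKM + 1) scale the difference from control was -0.85 ± 0.11 with IL-4 (adjusted p = 0.000154) and -1.19 ± 0.11 with LPS (adjusted p = 2.57e-06). The group means without the added 1 were 27.4% of control with IL-4 and 8.54% with LPS, and with IL-4+LPS 5.27% of the IL-4 mean. After IL-4 the LPS difference was -0.49 ± 0.11 (adjusted p = 0.0018), which is -0.08 relative to the median row, and IL-4+LPS against LPS was -0.15 ± 0.11 (adjusted p = 0.337). On the log2(FPKM + 1) scale the interaction was 0.71 ± 0.15 (adjusted p = 0.0146). The call was lost with a pseudocount of 0.1 (0.86, adjusted p = 0.434) and with quantile normalization (0.47, adjusted p = 0.101). By group means in FPKM the relative drop with LPS was no smaller after IL-4. The IL-4+LPS values rest on an implied 1, 0 and 6 fragments. In replicate 3 the LPS ratio was 0.156 after IL-4 and 0.0245 without it, opposite to replicates 1 and 2, so no direction is given.

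Smad7, the inhibitor, was 0.57, 0.40 and 0.51 FPKM in control, 0.77, 0.62 and 0.56 FPKM with IL-4, 0.11 in each of the 3 LPS samples, and 0.14, 0.15 and 0.10 FPKM with IL-4+LPS. The LPS-exposed samples lay below all samples without LPS, and within each of these sets the groups overlapped. In the fit without the filter on low values LPS against control was -0.42 (adjusted p = 0.00016) and LPS after IL-4 was -0.54 (adjusted p = 4.17e-05). IL-4 against control was 0.15 (adjusted p = 0.102). Smad3 and Smad7, an effector and an inhibitor of the same receptor, both had their lowest values in LPS-exposed cells.

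Tgfbi (chromosome 13, 56609603 to 56639339, plus strand), an extracellular matrix protein named for its induction by TGF-beta, was lowest when LPS followed IL-4. It was 75.3, 65.8 and 60.1 FPKM in control, 79.2, 71.7 and 71.2 FPKM with IL-4, 105, 73.4 and 65.8 FPKM with LPS, and 59.6, 44.6 and 42.3 FPKM with IL-4+LPS. The first 3 groups overlapped, and every IL-4+LPS sample lay below them, by a narrow margin in replicate 1. IL-4+LPS was lower than LPS by -0.72 ± 0.18 (adjusted p = 0.0108) and lower than IL-4 by -0.61 ± 0.18 (adjusted p = 0.00972). The first call was lost when only these groups were fitted (adjusted p = 0.0634) and the second with median scaling (-0.25, adjusted p = 0.231). Against control it was lower by -0.46 ± 0.18 (adjusted p = 0.0345), a call lost with median scaling (-0.08), without control replicates 1 (-0.37) or 2 (-0.47) and without IL-4+LPS replicates 2 (-0.40) or 3 (-0.37), and in the fit without a filter on low values (adjusted p = 0.0908). Neither agent alone gave a call, at 0.15 ± 0.18 for IL-4 (adjusted p = 0.556) and 0.25 ± 0.18 for LPS (adjusted p = 0.209), though median scaling put the LPS difference at 0.62 (adjusted p = 0.00781). The interaction was -0.86 ± 0.25 (adjusted p = 0.0569), and -0.85 with replicates 2 and 3 only (adjusted p = 0.00186).

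RefSeq promoter sequence (GRCm38.p6) was at hand for 5 of the 9 members: Tgfb1, Tgfbr1, Tgfbr2, Tgfbi and Smad3. The 250 bases before the annotated start are shown for Tgfbr2 and Smad3, which fell with both agents, and for Tgfb1, which did not pass the test. They lie at chr9:116175364-116175613 (minus strand), chr9:63757995-63758244 (minus strand) and chr7:25686752-25687001 (plus strand). Capitals mark matches, on either strand, to the motifs named after the sequences.

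Tgfbr2: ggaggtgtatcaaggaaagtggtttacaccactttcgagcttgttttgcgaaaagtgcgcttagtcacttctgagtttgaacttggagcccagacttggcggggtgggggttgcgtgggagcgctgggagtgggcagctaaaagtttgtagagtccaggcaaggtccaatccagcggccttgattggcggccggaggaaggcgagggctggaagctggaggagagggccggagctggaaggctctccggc
Smad3: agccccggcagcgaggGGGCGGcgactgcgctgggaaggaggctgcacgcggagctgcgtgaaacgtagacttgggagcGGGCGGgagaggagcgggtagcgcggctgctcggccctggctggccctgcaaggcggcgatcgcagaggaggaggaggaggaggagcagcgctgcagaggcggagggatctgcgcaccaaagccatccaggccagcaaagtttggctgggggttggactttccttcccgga
Tgfb1: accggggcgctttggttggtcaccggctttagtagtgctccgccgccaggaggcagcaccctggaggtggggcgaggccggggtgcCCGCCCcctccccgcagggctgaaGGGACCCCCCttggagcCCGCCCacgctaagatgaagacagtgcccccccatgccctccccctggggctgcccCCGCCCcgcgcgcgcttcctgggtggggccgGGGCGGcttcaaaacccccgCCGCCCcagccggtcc

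The motifs searched were the GC box GGGCGG, the AP-1 motif TGANTCA, the STAT motif TTCNNNGAA, the STAT6-type motif with 1 more unspecified base, the SMAD motif GTCTAGAC, the TATA motif TATAAA and the NF-κB consensus. Tgfb1 held 5 GC boxes and 1 NF-κB match, which begins 140 bases before the start. Smad3 held 2 GC boxes, Tgfbr2 held no match to any of them, and no 2 of these matches overlap. Over 32851 promoter windows of the same length, 32.7% held a GC box, 7.25% an NF-κB match, 6.75% the AP-1 motif, 7.02% the STAT motif, 5.85% the STAT6-type motif, 0.167% the SMAD motif and 12.4% the TATA motif. A match is a string of letters and not a site of binding, and these windows hold no distal enhancer.

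The lists of other pathway genes are described by counts, beside the shares of all rows that were called: 16.9% higher and 57.7% lower with LPS, and 15.0% higher and 15.8% lower in IL-4+LPS against LPS. All 4 signal transducers rose with LPS, with a median difference of 1.15 (log2) against -0.44 for all rows. Stat3, the main transcription factor of the IL-10 receptor, went from 27.1 ± 1.81 (SD, n = 3) FPKM in control to 77.3 ± 14.1 FPKM with LPS (1.47, adjusted p = 3.98e-05). With IL-4+LPS it was 42.6 ± 11.4 FPKM, below its LPS level (-0.86, adjusted p = 0.00565), and Jak1 was lower too (-0.40, adjusted p = 0.0108).

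Of 14 genes known as targets of IL-10 and STAT3 in macrophages, all tested, 10 rose and 2 fell with LPS, with a median of 2.03. In IL-4+LPS against LPS 0 of them were higher and 7 lower, with a median of -0.57 against -0.03 for all rows. Socs3, a STAT3-induced feedback inhibitor of cytokine signalling, rose by 8.05 with LPS (adjusted p = 1.9e-07). Il1rn, the IL-1 receptor antagonist, was 258 ± 121 FPKM with LPS and 39.6 ± 15.9 FPKM with IL-4+LPS (-2.63, adjusted p = 0.000598). Il4ra, a chain of the IL-4 receptor, was 180 ± 71.4 and 32.4 ± 11.7 FPKM (-2.42, adjusted p = 0.000265). LPS itself and IL-4 can act on many of these genes, so the list is not a readout of IL-10 alone.

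Among 12 regulators of Il10 transcription, 4 rose and 7 fell with LPS, close to the 57.7% of all rows that fell, with a median of -0.24. The NF-κB subunits Nfkb1 and Rel rose most, by 2.58 (adjusted p = 3.14e-08) and 2.47 (adjusted p = 2.02e-07). In IL-4+LPS against LPS 1 was higher, Rel (0.65, adjusted p = 0.00812), and 6 were lower. Maf, a transcription factor that promotes Il10 expression, was 53.7 ± 2.93 FPKM with LPS and 22.5 ± 2.02 FPKM with IL-4+LPS (-1.22, adjusted p = 1.98e-06). Of 8 other IL-10 family ligands and receptor chains only 2 reached 1 FPKM, and both rose with LPS: the ligand gene Il19 by 2.58 (adjusted p = 0.00572) and the receptor chain Il20rb by 1.89 (adjusted p = 4.21e-05). In control Il19 was at most 0.076 FPKM and Il20rb at most 0.57 FPKM. Both thus passed the filter only through treated samples, Il19 only through LPS-exposed ones, so the filter itself favoured a rise. Between the LPS-exposed groups Il20rb was higher after IL-4 (1.41, adjusted p = 0.00147).

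On the TGF-beta side, genes that store and release the latent ligand moved in both directions. Of 13 listed symbols 12 had a row, as Lrrc33 and Nrros name the same gene. Of these genes 8 were tested, and with LPS 3 rose and 3 fell, with a median of 0.16. Mmp14, a membrane-bound metalloproteinase, rose by 4.67 (adjusted p = 1.36e-07). Itgb8, the β chain of an integrin that activates latent TGF-beta, was 0.077 ± 0.017 FPKM in control, 9.48 ± 1.24 FPKM with LPS and 36.0 ± 4.62 FPKM with IL-4+LPS. Its difference between the LPS-exposed groups was 1.82 (adjusted p = 2.75e-06). Lrrc32, which encodes the latent TGF-beta anchor GARP, was 1.60 ± 0.77 FPKM in control and 20.4 ± 0.56 FPKM with IL-4 alone. Between the LPS-exposed groups it was 1.83 ± 0.60 FPKM with LPS and 35.8 ± 4.51 FPKM with IL-4+LPS (3.72, adjusted p = 4.43e-07). In this comparison 3 of the 8 were higher and 2 lower.

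Of 5 other TGF-beta ligands and receptors 2 were tested, and Acvrl1, a type I receptor, fell with LPS (-0.72, adjusted p = 0.000532). Neither passed in IL-4+LPS against LPS. Of 6 other SMAD genes 5 were tested: 2 rose and 1 fell with LPS, and 2 were lower in IL-4+LPS against LPS. Smad1, an effector of BMP receptors, fell with LPS (-0.76, adjusted p = 0.000134) and was lower again with IL-4+LPS (-0.51, adjusted p = 0.00718). Smad6, an inhibitory SMAD, rose with LPS (0.66, adjusted p = 0.00158) and was lower with IL-4+LPS (-0.78, adjusted p = 0.0021), all at or under 1.5 FPKM. It passed the filter only through samples given LPS alone, so the filter favoured both directions.

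Among 12 SMAD corepressors and receptor inhibitors, 11 were tested, and LPS raised 4 and lowered 4, with a median of -0.04. The related corepressors Ski and Skil moved in opposite directions with LPS: Ski fell by 2.41 (adjusted p = 2.49e-09) and Skil rose by 1.50 (adjusted p = 7.96e-05). In IL-4+LPS against LPS 3 were higher and 0 lower, among them the corepressor Tgif1 (0.77, adjusted p = 3.92e-05) and Pmepa1 (0.92, adjusted p = 0.00181), an inhibitor of SMAD activation. Pmepa1 was low, at 0.18 ± 0.053 FPKM with LPS and 1.28 ± 0.58 FPKM with IL-4+LPS. It passed the filter only through samples given IL-4, so the filter favoured this direction.

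Of 15 genes known as targets of TGF-beta and SMAD3, 10 were tested, and with LPS 6 rose and 3 fell, with a median of 1.35. Smad3 itself was at 8.54% of control in these LPS samples. Cdkn1a, a cell cycle inhibitor, rose by 3.99 (adjusted p = 3.09e-08). In IL-4+LPS against LPS 2 were higher and 2 lower. The transcriptional repressor Bhlhe40 was 1.78 ± 0.22 FPKM with LPS and 21.8 ± 4.92 FPKM with IL-4+LPS (3.02, adjusted p = 1.08e-07). Without LPS it was 5.14 ± 0.40 FPKM in control and 66.3 ± 1.57 FPKM with IL-4 alone. Id3, an inhibitor of helix-loop-helix factors, was 12.5 ± 3.74 FPKM with LPS and 0.82 ± 0.17 FPKM with IL-4+LPS (-2.85, adjusted p = 2.15e-06). Without LPS it was 1.28 ± 0.19 FPKM in control and 0.096 ± 0.12 FPKM with IL-4 alone. These genes too respond to other signals, and what part TGF-beta had in them was not tested.

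**Figure D4:**
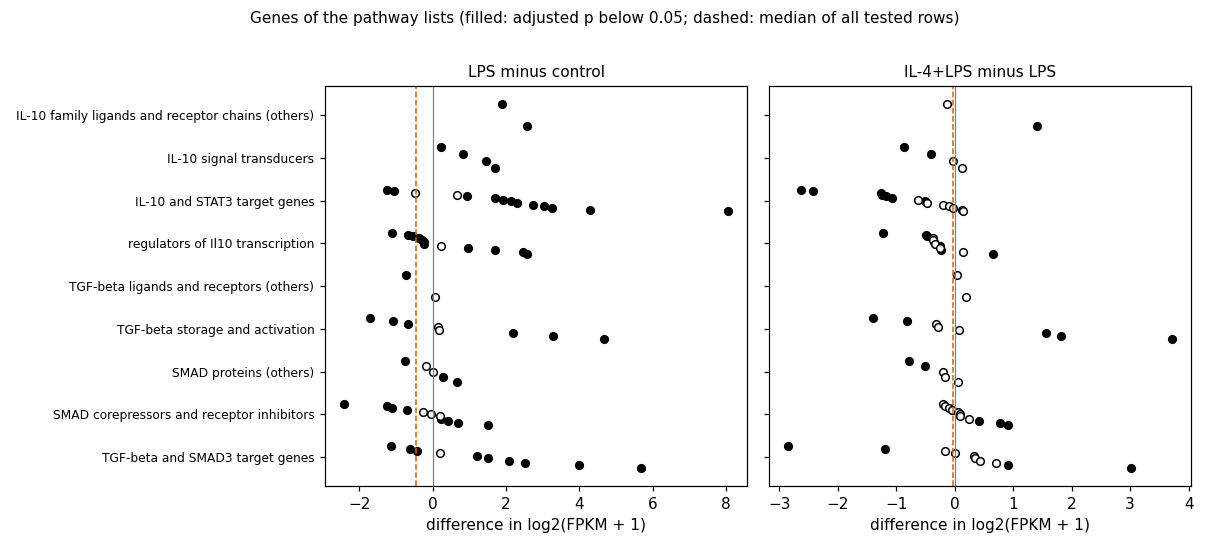
Difference in log2(FPKM + 1) of each tested gene of the 9 pathway lists, in LPS minus control (left) and IL-4+LPS minus LPS (right), 1 point per gene. Filled points have an adjusted p below 0.05 and the dashed line is the median of all 11191 rows. On the left 10 of 14 IL-10 and STAT3 targets lie to the right with filled points, and on the right 7 of the 14 lie to the left.

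For each member the genes with the most similar profile over the 12 samples were sought among 7226 rows with a mean of at least 5 FPKM, by Pearson's r of log2(FPKM + 1). The 12 points share 4 groups, so r describes shared group levels together with any shared differences between replicates. These parts were not separated. Tgfbr2 was tracked most closely by Camk1 (r = 0.996), Arhgdib (0.994) and Sidt2 (0.994). Camk1 went from a mean of 127 FPKM in control to 65.1 with IL-4, 58.4 with LPS and 35.2 FPKM with IL-4+LPS. Il10ra was closest to Mapk14 (0.987), which was 64.9 FPKM in control and 35.7 FPKM with IL-4. Il10 was closest to Rbm22 (0.966), and Smad3 to Clasp2 (0.990). The closest matches were looser for Tgfb1 (Ubl7, 0.935) and Tgfbi (2810403A07Rik, 0.911).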

How the data were processed

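RNA-seq was read as deposited: 1 table per sample with FPKM values that the authors made, per the submitters' processing notes with TopHat2 2.0.7 and Cufflinks 2.0.2 on mm10. Their kit does not mark strand, and FPKM carries no counts, so depth is known only in relative terms. The members and pathway lists were chosen with earlier results of these data known. Rows with at least 1 FPKM in at least 1 of 12 samples (11191 of 23847) were tested with limma 3.58.1 (R 4.3.3) on log2(FPKM + 1), with a group-means model over the 4 groups, an intensity trend and Benjamini-Hochberg adjustment, and were checked on simulated data. All adjusted p-values come from limma, those of Smad7 and of the alternatives from refits with the change named beside them. Errors of differences are SE, and those of FPKM are SD over 3 samples. For this RNA-seq the study names 3 individual animals from 2 independent experiments. It does not say which animal or experiment a replicate number marks, so p-values measure the spread between these samples. All 9 members were named. From each list the 2 called genes with the largest difference in LPS against control and in IL-4+LPS against LPS could be named, and the 3 most similar genes per member; some genes this rule allows are not reported here. Promoters were searched with Python 3.11.15, with motifs chosen after the results were seen. The alternatives changed the pseudocount (0.1), filter, scaling, trend, samples, replicate block, fold minimum (2) and p adjustment.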

Additional observations from a re-analysis of the deposited data

Results flagged for a closer look

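For 3 members the response to LPS differed between cells with and without IL-4 by the interaction test (limma, Benjamini-Hochberg over 11191 rows). Il10ra rose more after IL-4, with an interaction of 1.35 (log2, adjusted p = 0.000105). Tgfbr1 did not change with LPS beyond its spread after IL-4 but fell without it, with an interaction of 0.70 (adjusted p = 0.0309). For Smad3 the interaction was 0.71 (adjusted p = 0.0146) on the log2(FPKM + 1) scale, where values near 0 are compressed. By group means in FPKM Smad3 fell to 5.27% of the IL-4 mean after IL-4, against 8.54% of the control mean without it. The IL-4+LPS mean rests on an implied 1, 0 and 6 fragments, so no direction is given. The Smad3 call was lost with a pseudocount of 0.1 (adjusted p = 0.434). The Tgfbr1 call was lost in 8 of the 12 fits that left out 1 sample.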

How the results depend on the processing

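Over 1280 refits of single members in single comparisons, 1182 kept the direction and the side of the threshold, 52 lost the call, 44 gained one and 2 reversed: Il10rb in IL-4+LPS against IL-4 (0.12 with median scaling) and Il10 in IL-4+LPS against control (0.61 with replicates 2 and 3 only, from -0.02). Counts of members that moved by over 1.5 times are given here, and the causes were not tested. With a 2-fold minimum, LPS against control gave 1 higher and 2 lower, IL-4 against control 2 lower, IL-4+LPS against IL-4 1 lower, IL-4+LPS against LPS 0 lower, IL-4+LPS against control 0 higher and 2 lower, LPS against IL-4 0 lower, and the interaction 1 higher. With median scaling, IL-4+LPS gave 2 lower against IL-4 and 2 lower against control, LPS against IL-4 gave 1 lower, as it did with quantile normalization, and the interaction 1 lower, as it did at an unadjusted p. Without the filter LPS raised 1 member, and with only the groups compared IL-4+LPS against LPS gave 1 lower. With replicates 2 and 3 only, the members higher were 2 for IL-4+LPS against IL-4, 3 against LPS and 2 against control, and the interaction had 5 higher and 2 lower. Over all 11191 rows that setting called 1951 higher for IL-4+LPS against IL-4, 2351 against LPS and 2307 against control. For the interaction it called 1481 higher and 1386 lower, against 512 and 518 with all samples.

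Leaving out 1 sample at a time, the members higher ranged from 1 to 2 for LPS against control (1 without control replicate 1, 2 or 3 or LPS replicate 2 or 3), from 1 to 2 for IL-4+LPS against IL-4 and from 0 to 1 against LPS (the upper value in both without IL-4+LPS replicate 1). The members lower ranged from 1 to 3 for LPS against IL-4 (1 without LPS replicate 3) and from 0 to 1 for the interaction (1 without IL-4+LPS replicate 1 or LPS replicate 3).

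The labels number the replicates alike in each group. Same-numbered samples deviated from their group means with a correlation of 0.124 on average over 18 pairs (0.0024 to 0.386), of which 11 were over 0.1. Differently numbered samples averaged -0.060 over 36 pairs, of which 5 were over 0.1, so same-numbered samples were more alike. Neither the labels nor the study say what a number marks. The main fit left the number out, and blocked values are given as well. With the replicate block, LPS against IL-4 gave 4 lower, IL-4+LPS against LPS 2 higher and the interaction 1 lower, and Il10 in IL-4+LPS against LPS passed the threshold (-1.98, adjusted p = 0.00838). Tgfb1 passed in LPS against control (adjusted p = 0.00814), IL-4+LPS against LPS (0.0365) and LPS against IL-4 (0.041). Over all rows the block called 1145 higher and 1095 lower for the interaction, and 2287 and 2667 for IL-4+LPS against LPS where the fit without it called 1682 and 1771. FPKM without counts and 3 samples per group limit these values, and Smad3, Smad7 and Il10 in replicate 1 rest on few fragments.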

Other observations

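Lrrc33, which encodes an anchor of latent TGF-beta on macrophages and microglia, was picked out after its values were seen. It was 115 ± 16.7 (SD, n = 3) FPKM in control and 34.7 ± 4.64 FPKM with LPS, but 104 ± 6.38 FPKM with IL-4+LPS, against 104 ± 16.0 FPKM with IL-4 alone. LPS lowered it by 1.70 on the log2 scale without IL-4 (limma, adjusted p = 1.8e-06), and the interaction was 1.71 (adjusted p = 0.000713). Of the 8 tested genes of TGF-beta storage and activation, Lrrc33, Itgb8 and Lrrc32 were higher with IL-4+LPS against LPS, while Thbs1 (-1.39, adjusted p = 0.00505) and Mmp14 (-0.81, adjusted p = 0.0438) were lower.

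Maf, an Il10 activator, was 63.7 ± 0.97 FPKM in control and 12.1 ± 0.98 FPKM with IL-4 alone (-2.31, adjusted p = 2.7e-08), so a lower level was already present before LPS. LPS raised Maf after IL-4, to 22.5 ± 2.02 FPKM (0.85, adjusted p = 5.3e-06), and without IL-4 its difference was -0.24 (adjusted p = 0.0175) where the median row was at -0.44, with an interaction of 1.09 (adjusted p = 0.000343).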
